A study of Rattus norvegicus with 22 samples.

Results

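The comparison concerned male Wistar rats that all drank alcohol and differed in what they were given by gavage, a feeding tube placed into the stomach. Samples were chosen by their titles in experiment 2, which named 6 rats with EtOH gavage and 6 with water gavage, together 12 of the 22 rats sequenced in the study. Every rat could choose 6% EtOH beside water. In the EtOH group 4 weeks of voluntary drinking were followed by 3 weeks of gavage and a further 2 weeks of access. For the water group the paper describes continuous EtOH access over that period, together with 3 weeks of water gavage. In the gavage phase the EtOH group received 2.5 g/kg EtOH as a 30% solution, 2 times per day. The water group received water by gavage, for which the paper gives no number of doses per day. The controls were therefore drinkers too, and the contrast addressed the forced dose on top of voluntary intake. Whole NAc tissue from each rat was sequenced, 1 rat per library, and 17310 gene symbols were counted, of which 14121 had at least 1 read in these rats. The 8655 genes with an average normalised count above the median of the listed genes (66.4) were tested. A further 5 control and 5 drinking rats of experiment 1 were used to set the variation among rats beside that of another run, and they entered 1 alternative fit with all 4 groups.

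The nucleus accumbens (NAc) is the ventral part of the striatum and receives dopamine from the midbrain. Most of its neurons are GABAergic projection neurons, which carry either D1 or D2 dopamine receptors and integrate glutamate input from cortex, hippocampus, amygdala and thalamus. Alcohol acts on GABA-A and NMDA receptors, on potassium channels and on opioid and stress peptides, and genes of these systems are often followed in drinking models.

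Between 6713617 and 8765472 reads per rat fell on genes, and levels are given as CPM, the counts scaled to the same library total in every rat, after TMM scaling, which evens out composition between libraries. In the text, rats carry the number of their replicate, and the number orders nothing. Genes were grouped into 60 families by function or cell type. At least 5 tested members were found for 55 of the families. The lists held 2658 different symbols, of which 1031 were tested. Markers of the labelled tissue were present, with Drd1, the D1 receptor, between 428 and 814 CPM in every rat and Drd2, the D2 receptor, between 125 and 336 CPM. Ttr, the main product of choroid plexus, had between 0 and 8 reads per rat.

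No gene separated the groups after correction. In the quasi-likelihood test of edgeR, adjusted by Benjamini-Hochberg, 0 of 8655 genes (0%) passed an FDR of 0.05, and the smallest FDR was 0.675. An unadjusted P under 0.05 was obtained for 115 genes, or 1.33%. Of these genes, 61 were higher after EtOH gavage (0.705% of those tested) and 54 were lower (0.624%). The 1.33% is below the share of 0.05 that this threshold gives on average when no gene differs. An unadjusted P under 0.05 for a single gene, as given below, is therefore no evidence of a difference by itself. DESeq2 with default settings also gave 0 genes at an FDR under 0.05, with 315 at an unadjusted P under 0.05. Over all tested genes the log2 fold change had a median of 0.00088, with quartiles of -0.24 and 0.16, and genes had standard errors of 0.195 in the median (n = 6 rats per group). Counts were also simulated, drawn independently for each gene. In them the same test found 0% of genes with a true log2 change of 0.5 and 57.5% of those with 1. Small changes could thus be missed. In these rats much of the variation was shared by many genes, as described below, so the shares found may differ from the simulated ones. The number of genes with P under 0.05 depended on single rats. It was 774 without water rat 1 and 776 without EtOH rat 4. It was 28, 47, 73 and 74 without water rats 2, 3, 4 and 6, and 39 and 30 without EtOH rats 1 and 2.

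Ranked by P, the leading 10 genes all had an FDR of 0.675 (edgeR quasi-likelihood, Benjamini-Hochberg adjusted). The clearest separation was seen for Reps1, a protein of endocytosis, with lowest, median and highest levels of 28.1, 30.9 and 32.6 CPM after water and 19.1, 22.8 and 27.8 CPM after EtOH. It was the 1 gene of the 8655 (0.0116%) whose groups did not overlap in CPM. Blnk, a B-cell adaptor protein, had levels of 7.07, 12.4 and 14.5 CPM after water and 5.32, 7.03 and 8.53 CPM after EtOH. For Blnk the groups met only at water rat 1, which had the lowest value of its group. Gmeb2, which binds glucocorticoid modulatory elements, was at 8.80, 10.7 and 18.7 CPM after water and 4.07, 6.21 and 9.23 CPM after EtOH.

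Rela, the p65 subunit of NF-kB, had lowest, median and highest levels of 17.2, 27.7 and 31.8 CPM after water and 9.57, 17.8 and 22.1 CPM after EtOH, with a log2 fold change of -0.61 ± 0.22 (SE). All 6 EtOH rats were below the water median, and water rats 1 and 5 were within the EtOH range. Traf2, an adaptor of TNF receptors, was at 6.94, 10.97 and 17.1 CPM after water and 5.48, 7.67 and 9.95 CPM after EtOH (log2 fold change -0.62 ± 0.24). Rela belongs to the family of NF-kB, Toll-like and cytokine genes and Traf2 was not listed in it. Of the 39 listed members 12 were tested, 6 higher and 6 lower, with a median log2 fold change of 0.03, and Nfkb1, the p50 precursor, had a log2 fold change of -0.03 ± 0.15.

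Of the 10, 4 had higher levels after EtOH gavage. Fancd2, a DNA crosslink repair protein, had lowest, median and highest levels of 6.59, 8.35 and 21.7 CPM after water and 9.52, 21.5 and 27.2 CPM after EtOH (log2 fold change 0.92 ± 0.35). Its EtOH rats 4 and 6 stood near the water group, and water rat 1 stood with the other EtOH rats. Pdgfc, a ligand of the PDGF receptors, was at 8.54, 9.51 and 14.5 CPM after water and 9.93, 15.6 and 16.8 CPM after EtOH (0.51 ± 0.19). Nabp1, a single-stranded DNA binding protein, was at 12.5, 15.5 and 18.5 CPM after water and 16.8, 21.8 and 32.3 CPM after EtOH (0.51 ± 0.18). In Pdgfc and Nabp1 every EtOH rat exceeded the water median. Such counts, also for the lowest-P member of each family below, follow largely from choosing genes by P in the same rats. The share of all tested genes with such counts was not computed. Ociad2 had a log2 fold change of 0.42 ± 0.16 and Hsd17b8, a mitochondrial fatty acid synthesis enzyme, one of -0.74 ± 0.27. The plot of the 10 genes by rat shows how much the groups overlapped.

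**Figure D1:**
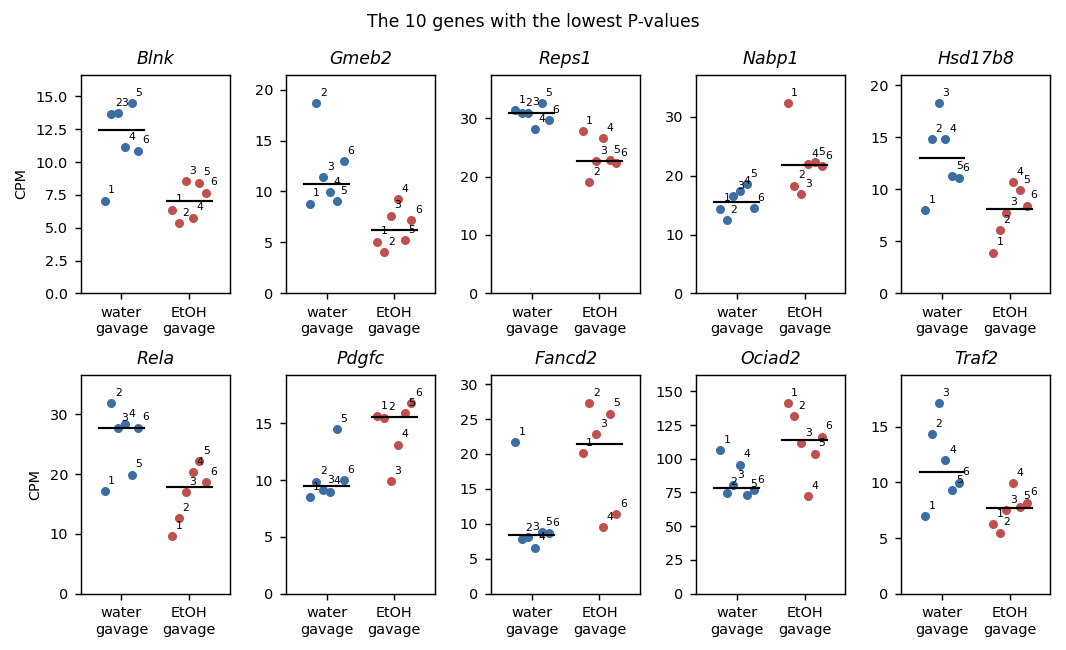
Level in CPM (vertical axis, from 0) of the 10 lowest-P genes in each rat, with water gavage in blue, EtOH gavage in red, the replicate number beside each point and a black line at the group median. For Reps1 the water rats sit at 28.1 to 32.6 CPM and the EtOH rats at 19.1 to 27.8 CPM, and the other 9 genes overlap between groups.

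Across families the groups stood close together, and most family medians lay within 0.25 of 0 on the log2 scale. A median log2 fold change above 0.25 was found in 1 of the 55 families, that of fibroblast and fibrillar matrix genes, and one below -0.25 in 8. The 8 were ependymal cilia (-0.43), myelin and oligodendrocytes (-0.38), basement membrane (-0.31), endothelial cells (-0.30), indirect-pathway projection neurons (-0.30), septal and basal forebrain neurons (-0.29), shared striatal projection neurons (-0.29) and microglia (-0.27). Over the 55 families, 0 members passed an FDR of 0.05 (edgeR quasi-likelihood, Benjamini-Hochberg adjusted). The share of reads assigned to no gene, called the share outside genes, was entered as a covariate. It differed among rats, as described below. With it, the medians of basement membrane, septal and basal forebrain, and microglial genes were 0.15, 0.02 and -0.04, while those of indirect-pathway and shared striatal neurons were -0.31 and -0.22. Single rats also moved these medians. That of septal and basal forebrain genes was 0.10 without water rat 6 and -0.13 without EtOH rat 1. The shared striatal median was -0.18 without water rat 5, and the microglial median was -0.16 without water rat 3 and -0.17 without EtOH rat 3. The plot of fold changes by family gives each member.

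**Figure D2:**
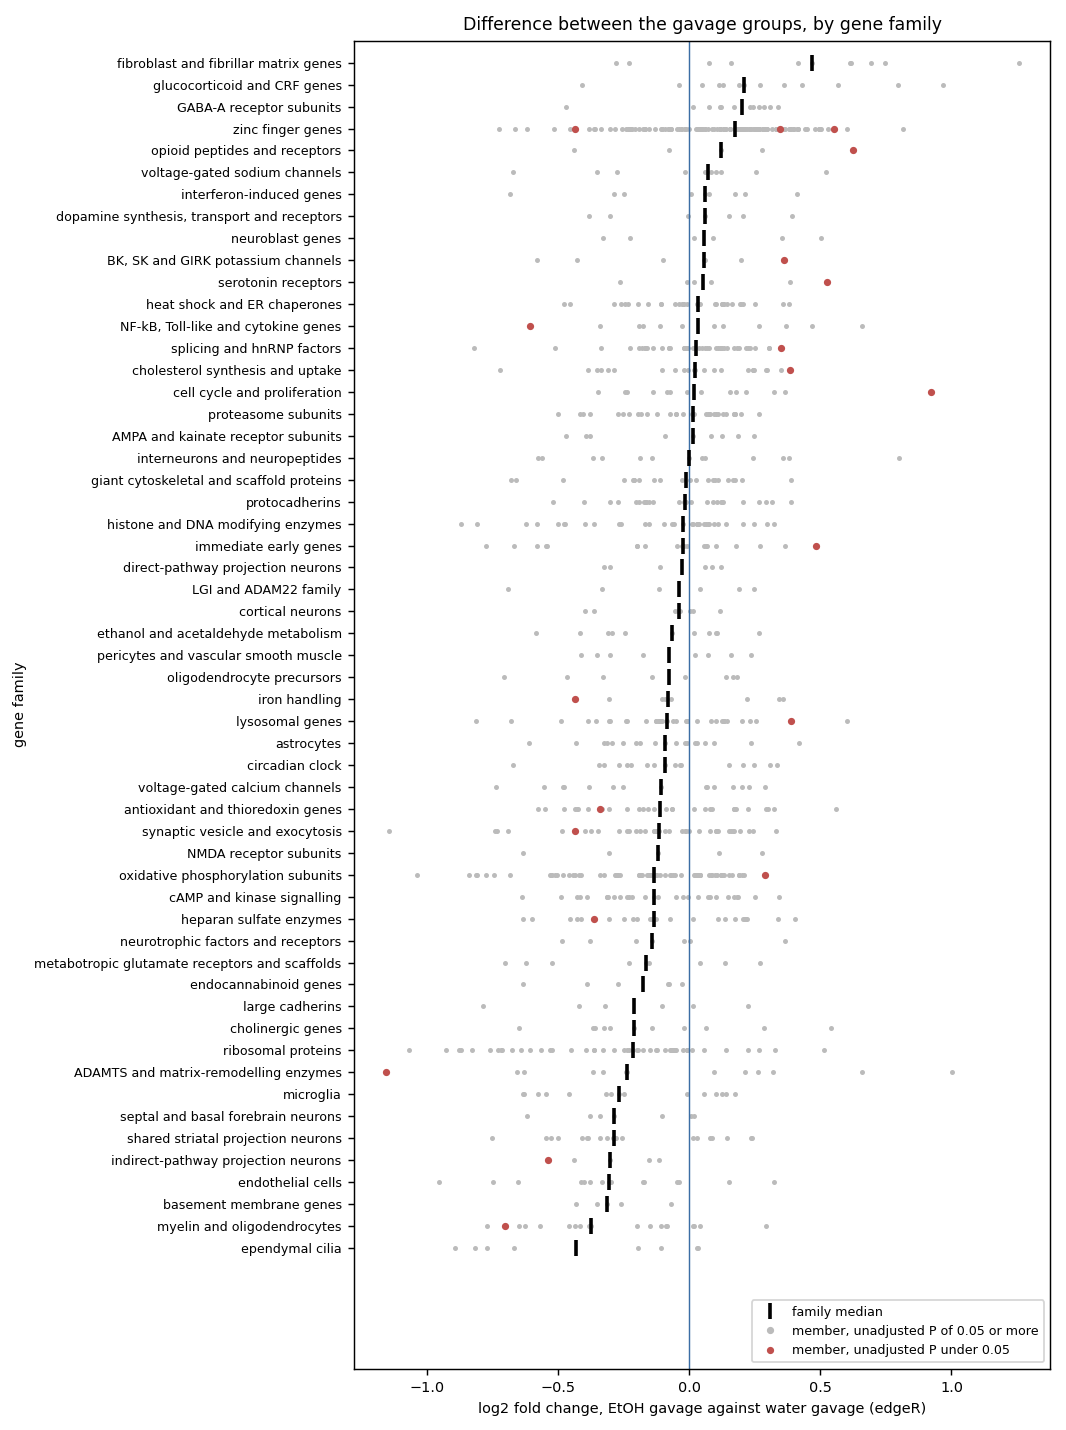
Log2 fold change of EtOH gavage against water gavage (horizontal axis, above 0 is higher after EtOH) for each tested member of 55 gene families, ordered by the family median (black bar), with members at an unadjusted P under 0.05 in red. Family medians run from -0.43 for ependymal cilia to 0.47 for fibroblast and fibrillar matrix genes, and 0 members have an FDR under 0.05.

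The large differences lay among rats of the same group. The standard deviation (SD) of a gene's log2 CPM among rats within groups had a median of 0.339, with quartiles of 0.239 and 0.506, and exceeded 1 in 389 genes. For the same genes in experiment 1 the median was 0.163. The libraries of the experiments were prepared differently, with strand information kept only in experiment 2, and the difference in spread was not tested. Lower genes varied more, with median SDs of 0.480, 0.376, 0.323, 0.293 and 0.285 from the lowest to the highest level quintile. Much of the variation was shared by many genes. The leading component of the within-group deviations held 73.2% of their variance and the next held 7.21%, against 23.4% for the leading component in experiment 1. More than 50% of a gene's within-group variance lay on this component for 5403 genes, or 62.4% of those tested.

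On the first principal component of all 12 rats, which held 74.0% of the variance, EtOH rats 1 and 2 scored -86.5 and -48.7 and water rats 1 and 5 scored -36.9 and -17.9. The other 8 rats scored between 4.04 and 49.9. Both groups were spread along this axis, at 13.7 ± 33.8 (SD, n = 6) after water and -13.7 ± 44.5 (SD, n = 6) after EtOH, with no difference beyond that spread (two-sided exact permutation test, p = 0.262). The share of reads outside annotated genes followed the same order. This share is the reads that HTSeq counted under no gene, as a percentage of these reads and the reads on genes together. Ambiguous reads, low-quality reads, unaligned reads and reads aligned to several places were left out of it. The counting options are not given, so the reads in this share need not all lie outside genes. It was 58.0% and 56.4% in EtOH rats 1 and 2, 54.5% and 52.8% in water rats 1 and 5, and between 46.1% and 51.7% in the others. Scores and shares were related across the 12 rats with Pearson's r = -0.975 and Spearman's rho = -0.965 (permutation test, p = 1e-05 for both, the smallest that 100000 permutations can give, and 3e-05 after adjustment over 3 relations). Without the 2 rats farthest from the median share, r was -0.948, and it was -0.980 within the water group and -0.975 within the EtOH group. Scores were less closely related to the share of reads aligned to several places (r = -0.454, adjusted permutation p = 0.203) or to the number of reads on genes (r = 0.255, adjusted permutation p = 0.423). The share outside genes was 50.1% ± 3.09 after water and 52.9% ± 3.42 after EtOH (SD, n = 6 each, two-sided exact permutation test, p = 0.175). Its part in the differences between families was not tested beyond the covariate.

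Families differed in how much their genes varied among rats of the same group. The median SD of a family exceeded that of all tested genes by more than 1.5 times in 12 of the 55 families and was below it in 15. The 12 were cortical neurons (6.27 times), BK, SK and GIRK potassium channels (2.61), fibroblast and fibrillar matrix genes (2.54), ependymal cilia (2.37), neurotrophic factors and receptors (2.37), septal and basal forebrain neurons (2.18), basement membrane genes (1.91), interneurons and neuropeptides (1.90), glucocorticoid and CRF genes (1.80), ADAMTS and matrix-remodelling enzymes (1.75), immediate early genes (1.70), and pericytes with vascular smooth muscle (1.59). The lowest ratios among families of 5 or more were those of proteasome subunits (0.778), oxidative phosphorylation subunits (0.805), and splicing and hnRNP factors (0.827). A large SD did not mean a large share on the leading component. Among the 12 families the median member's share ran from 11.9% in fibroblast genes to 87.2% in basement membrane genes. It was 66.2% in cortical neurons, 17.2% in ependymal cilia, 80.2% in proteasome subunits and 65.9% in the median tested gene. After removal of the leading within-group component, 11 of the 12 families were still above 1.5 times, and 23 families were in all. When each SD was divided by its trend over expression level, 9 of the 12 were above 1.5 times. The cortical ratio was then 3.18, and it was 4.02 when genes of all levels were included. The figures of variation and of family levels show that the rats at the extremes were not the same in every family.

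**Figure D3:**
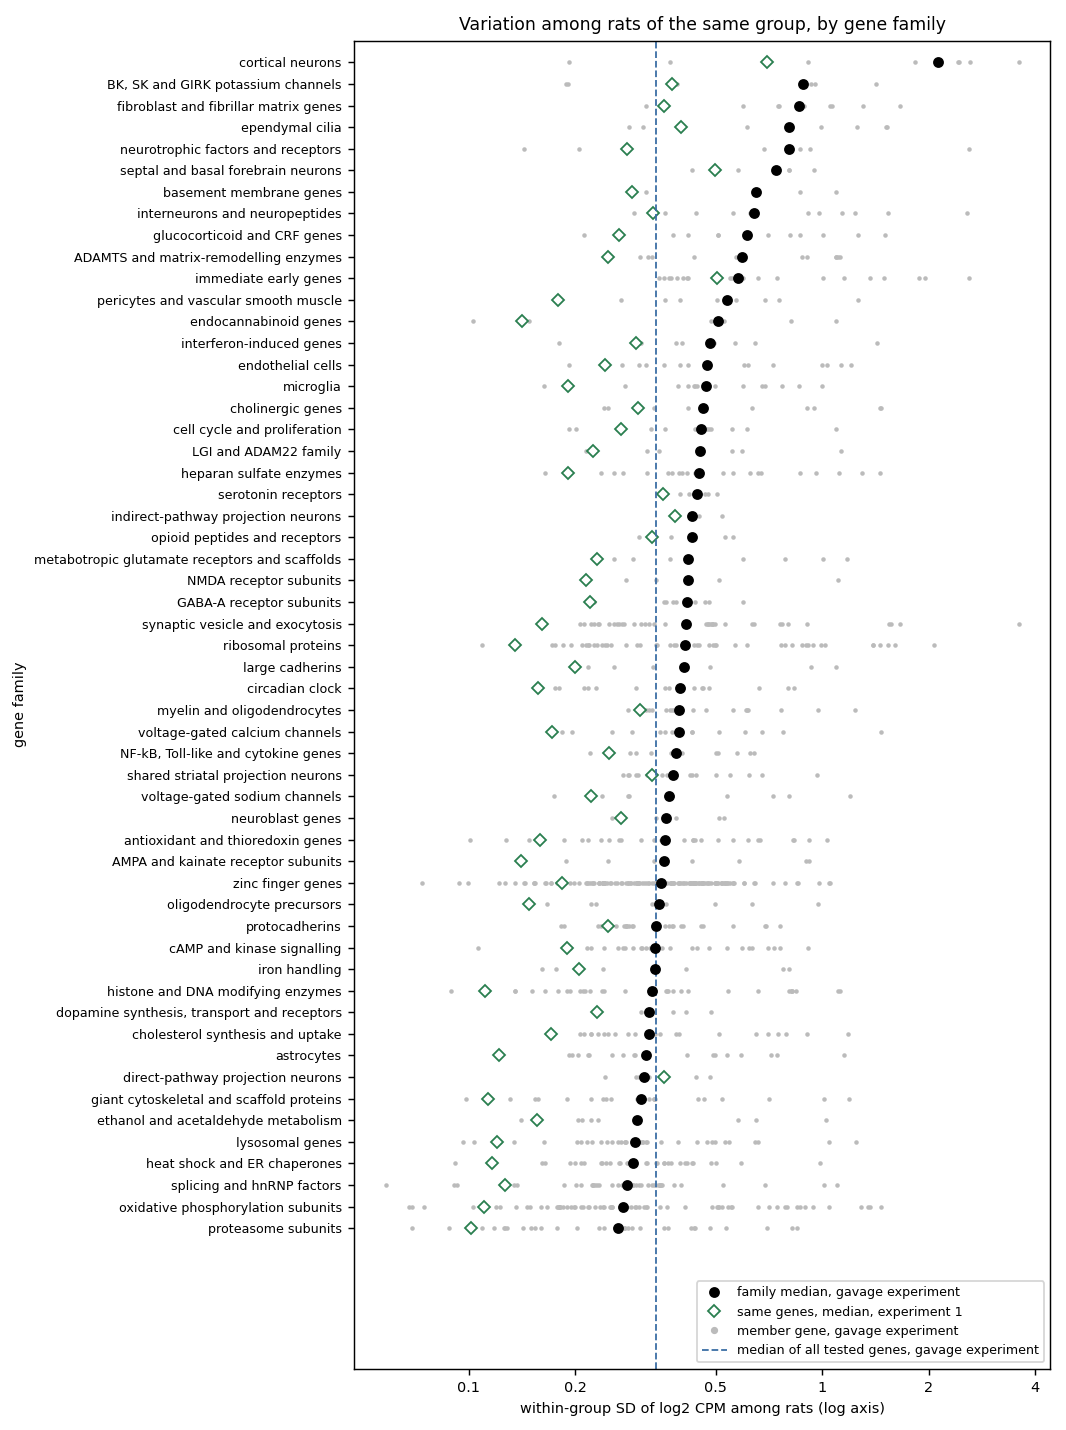
Within-group SD of log2 CPM among rats (horizontal log axis) for each tested member (grey), the family median (black) and the median of the same genes in experiment 1 (green diamonds), with the median of all tested genes, 0.339, as a dashed line. Cortical neuron genes lie farthest to the right with a median of 2.12, and proteasome subunits lie lowest with 0.264.

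**Figure D4:**
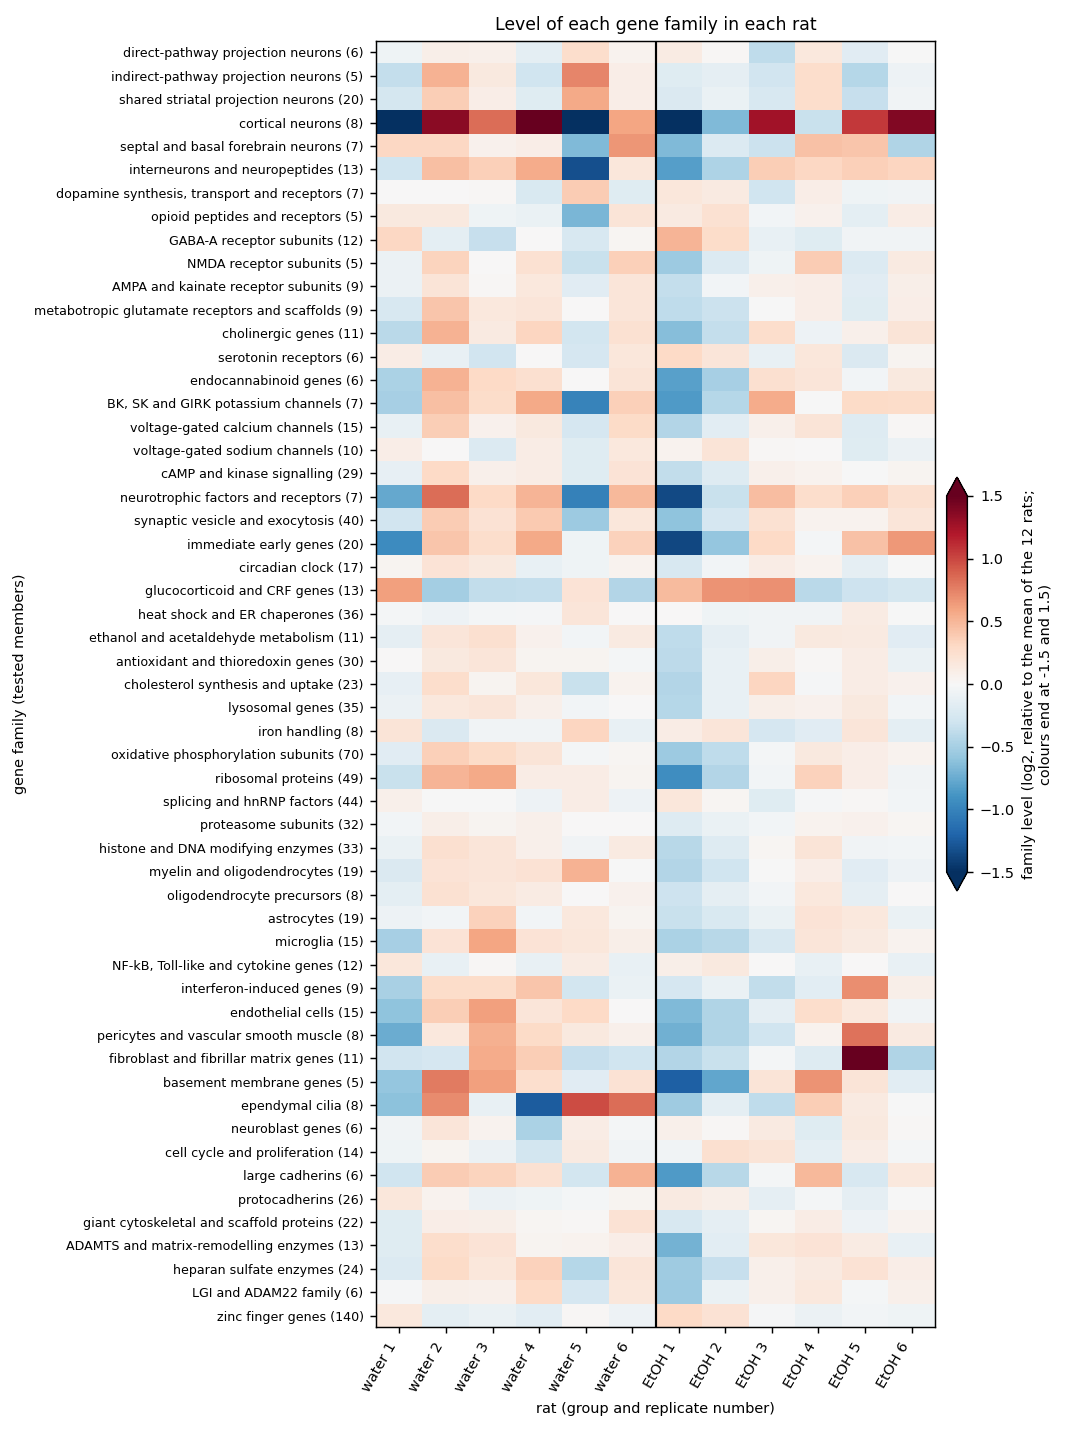
Level of 55 gene families (rows, with the number of tested members) in each of the 12 rats (columns, water gavage left and EtOH gavage right of the line), as the mean log2 CPM of the members relative to the mean of the 12 rats, with red for higher and blue for lower. Cortical neuron genes are lowest in water rats 1 and 5 and EtOH rat 1, fibroblast genes stand out in EtOH rat 5, and ependymal genes run from -1.25 in water rat 4 to 0.98 in water rat 5.

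Genes of cortical glutamatergic neurons varied most. The level of the family, the mean log2 CPM of its 8 tested members relative to all rats, ran from -2.69 in EtOH rat 1 to 1.63 in water rat 4, a range of 4.32 on the log2 scale. Of the 10 tested genes with the largest SDs in the whole table, several belonged to this list, among them Slc17a7, Neurod6 and Tbr1. Slc17a7, the vesicular glutamate transporter VGLUT1 of cortical neurons, had lowest, median and highest levels of 0.139, 190 and 437 CPM after water and 1.88, 152 and 307 CPM after EtOH, the largest SD of all genes (3.59). Water rats 1 and 5 and EtOH rat 1 had at most 3.07 CPM of Slc17a7, EtOH rats 2 and 4 had 25.8 and 54.1 CPM, and the other 7 rats had 159 CPM or more. Neurod6 and Tbr1, transcription factors of cortical excitatory neurons, ranged over 0.725 to 61.4 CPM and 0 to 20.2 CPM. Both genes were low in the same rats as Slc17a7. The groups overlapped fully, with log2 fold changes of -0.40 ± 1.17 for Slc17a7 and 0.01 ± 0.96 for Neurod6. Fewer cortical neurons in a sample and less RNA per such neuron cannot be told apart in whole tissue.

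Not all genes of the cortical list behaved alike, as seen in a pair chosen after their values were seen. Lamp5, a membrane protein of dendrites and axons, had an SD of 0.192 and lay between 181 and 286 CPM. Kcnv1, a silent potassium channel subunit, lay between 57.2 and 116 CPM. Kcnv1 was lowest in water rat 1 but was at 112 CPM in water rat 5, and Lamp5 was highest in water rat 5, the rat with the least Slc17a7. The 12 listed genes found in the files, of which 4 were below the threshold for testing, summed to between 2330 and 8099 reads per rat. Genes outside the cortical list that were also low in these rats stood among the 10 largest SDs. Nov, a matricellular CCN protein, had levels of 3.47, 79.0 and 152 CPM after water and 0.580, 87.0 and 171 CPM after EtOH. Nxph3, a neurexin ligand, and Cplx3, a complexin of deep cortical layers, lay between 0.157 and 29.1 CPM and between 0.279 and 21.5 CPM. In experiment 1 the median SD of the cortical family was 0.699, above the 0.163 of all genes there as well.

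Peptides and growth factors of forebrain neurons followed the cortical genes in part. In the family of interneurons and neuropeptides, 13 of 22 listed genes were tested, 7 higher and 6 lower after EtOH gavage, and the largest SD was that of Cck (2.57). Cck, the peptide cholecystokinin, had lowest, median and highest levels of 0.267, 13.4 and 47.9 CPM after water and 0.145, 10.6 and 24.6 CPM after EtOH, and was lowest in water rats 1 and 5 and EtOH rats 1 and 2. Sst, somatostatin, was at 7.10, 20.1 and 53.0 CPM after water and 6.09, 15.3 and 30.6 CPM after EtOH. Vip, chosen after its values were seen, lay below 3 CPM in those same 4 rats and between 6.49 and 35.3 CPM in the rest. Pvalb, the calcium buffer of fast-spiking interneurons, also chosen afterwards, ranged only from 9.055 to 30.1 CPM and was at 22.5 CPM in water rat 1. Npy5r, a receptor of neuropeptide Y, had the lowest P of the family and was above the water median in 6 of 6 EtOH rats, at 9.98 to 17.0 CPM against 6.41 to 13.2 CPM (log2 fold change 0.38 ± 0.23).

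Among neurotrophic factors and receptors, 7 of 15 listed genes were tested. Bdnf, the ligand of TrkB that reaches the NAc largely from cortical axons, had lowest, median and highest levels of 0, 6.91 and 21.9 CPM after water and 0, 10.5 and 24.95 CPM after EtOH. It was undetected in water rat 5 and EtOH rat 1 and at 0.267 CPM in water rat 1. Ntrk2, the TrkB receptor itself, chosen after its values were seen, varied little, between 948 and 1257 CPM. Cntfr, the receptor of ciliary neurotrophic factor, was at 8.40, 19.4 and 37.9 CPM after water and 5.51, 11.8 and 28.8 CPM after EtOH (-0.49 ± 0.44).

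**Figure D5:**
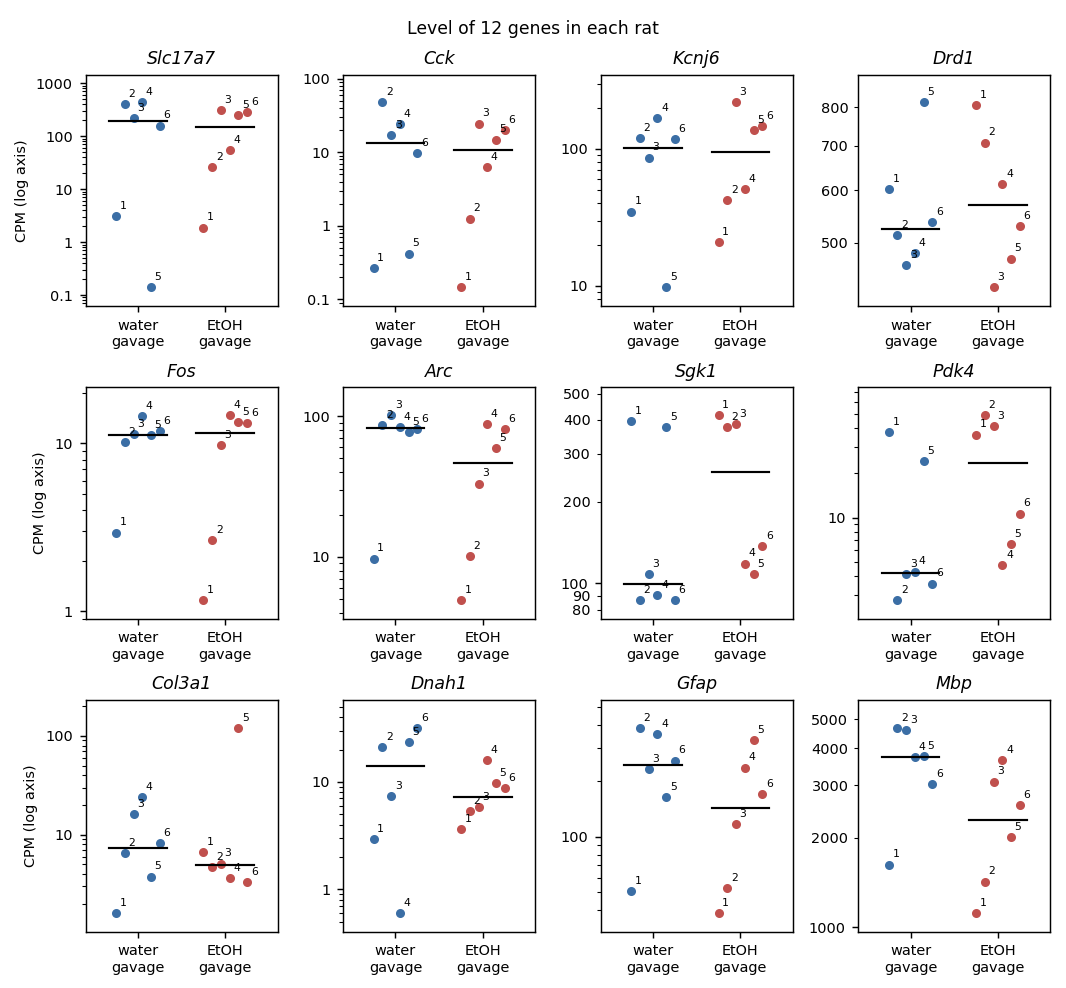
Level in CPM (vertical log axes) of 12 genes in each rat, with water gavage in blue, EtOH gavage in red, the replicate number beside each point and a black line at the group median. Slc17a7 and Cck are lowest in water rats 1 and 5 and EtOH rat 1, Fos and Arc in water rat 1 and EtOH rats 1 and 2, Sgk1 and Pdk4 are highest in water rats 1 and 5 and EtOH rats 1, 2 and 3, and Col3a1 reaches 120 CPM in EtOH rat 5.

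Genes of the accumbens' own projection neurons varied less than the cortical genes. Median SDs of the direct, indirect and shared families were 0.927, 1.26 and 1.12 times that of all tested genes, beside 6.27 times for cortical neurons. With each SD divided by its trend over expression level, the 3 ratios were 1.05, 1.58 and 1.47, beside 3.18. The 6 tested direct-pathway genes had a median SD of 0.314, below that of all genes, and a median log2 fold change of -0.03, with 3 higher and 3 lower. Drd1 was at 463, 525 and 814 CPM after water and 428, 570 and 806 CPM after EtOH (0.06 ± 0.18). Chrm4, the M4 muscarinic receptor, had the lowest P of this family, with 59.8, 70.2 and 83.4 CPM after water and 37.8, 52.3 and 86.5 CPM after EtOH (-0.32 ± 0.17), and 5 of 6 EtOH rats were below the water median. Ebf1, a transcription factor of direct-pathway neurons, was the most variable member, from 5.91 to 19.4 CPM.

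The 5 tested genes of the indirect pathway were all lower after EtOH gavage, and 1 of them had an unadjusted P under 0.05, beside 0.624% of all tested genes at that P and lower. Adora2a, an adenosine receptor, had lowest, median and highest levels of 103, 155 and 230 CPM after water and 79.7, 106 and 165 CPM after EtOH (log2 fold change -0.54 ± 0.24). Its values were highest in water rats 2 and 5, and 5 of 6 EtOH rats were below the water median. Drd2 was at 147, 205 and 336 CPM after water and 125, 177 and 227 CPM after EtOH (-0.30 ± 0.20). Gpr52, an orphan receptor of these neurons, was the most variable, with 277 CPM in water rat 5 and 68.5 to 182 CPM elsewhere. Leaving out each rat in turn kept the family median between -0.39 and -0.14, and the value nearest 0 came without water rat 5.

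Genes shared by both kinds of projection neuron gave a similar picture. Of 20 tested, 13 were lower and 7 higher, with a median log2 fold change of -0.29. Ppp1r1b, the dopamine-regulated phosphatase inhibitor DARPP-32, was at 849, 1245 and 2312 CPM after water and 933, 1222 and 1332 CPM after EtOH, with water rat 5 at the top (-0.25 ± 0.20). Camk4, a calcium-dependent kinase, had the lowest P, at 56.0, 69.8 and 101 CPM after water and 45.7, 62.2 and 66.8 CPM after EtOH, and all 6 EtOH rats were below the water median (-0.31 ± 0.16). Rxrg, a retinoid receptor, had the largest SD (0.968) and was lowest in water rat 1 and EtOH rats 1 and 2, at 18.5, 13.6 and 17.2 CPM. In water rat 5 the levels of the direct, indirect and shared families were each the highest of the 12 rats, while its cortical and peptide families were among the lowest.

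Dopamine genes differed little, with 4 of 7 tested members higher and a median log2 fold change of 0.06. Slc18a2, the vesicular monoamine transporter, had the lowest P, at 17.1 to 31.9 CPM after water and 21.4 to 52.2 CPM after EtOH (0.39 ± 0.24). Opioid genes were represented by 5 tested members of 8. Oprk1, the kappa receptor, had lowest, median and highest levels of 11.6, 22.4 and 28.1 CPM after water and 20.4, 26.0 and 50.004 CPM after EtOH (0.62 ± 0.29), an unadjusted P under 0.05. EtOH rats 1 and 2, at 50.004 and 48.4 CPM, made up the upper part of that range, and the other 4 lay between 20.4 and 29.2 CPM. Pdyn, the precursor of its ligand dynorphin, was at 306, 465 and 551 CPM after water and 372, 527 and 613 CPM after EtOH (0.12 ± 0.16). Oprl1, the nociceptin receptor, was the most variable opioid gene, with 11.6 CPM in water rat 5 and 32.0 to 52.6 CPM elsewhere.

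GABA-A receptor subunits, which form the chloride channels of fast inhibition, had 12 tested members, 11 of them higher after EtOH gavage, with a median log2 fold change of 0.20. With the share of reads outside genes as a covariate the median was -0.06, and it was 0.04 without EtOH rat 1, 0.13 without water rat 3 and 0.12 without water rat 5. Gabrd, the delta subunit of extrasynaptic receptors, was the exception and had the lowest P, with 56.2, 75.5 and 98.2 CPM after water and 28.8, 52.3 and 79.2 CPM after EtOH (-0.47 ± 0.22). Gabrg1 reached 353 CPM in EtOH rat 1 and 254 CPM in water rat 1 and was otherwise between 90.9 and 222 CPM.

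Among NMDA receptor subunits 5 were tested, 2 higher and 3 lower. Grin1, the obligatory subunit, had lowest, median and highest levels of 312, 467 and 657 CPM after water and 220, 365 and 488 CPM after EtOH (-0.31 ± 0.22). Grin2c was the most variable subunit, at 6.09 CPM in EtOH rat 1 and 81.9 CPM in EtOH rat 4. AMPA and kainate subunits were split into 5 higher and 4 lower. Gria2, the subunit that limits calcium entry, lay between 1616 and 2574 CPM after water and reached 4066 CPM in EtOH rat 1 (0.25 ± 0.19), whereas Grik5 was lowest in that rat at 18.0 CPM. Metabotropic receptors and scaffolds had 3 higher and 6 lower, and Shank3, a scaffold of excitatory synapses, was at 87.6, 164 and 347 CPM after water and 44.2, 127 and 227 CPM after EtOH (-0.62 ± 0.39). Grm4, a presynaptic glutamate receptor, lay between 1.45 and 26.6 CPM.

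Among cholinergic genes 11 of 17 were tested, 3 higher and 8 lower. Chrnb2, the beta-2 nicotinic subunit, was below the water median in 6 of 6 EtOH rats, at 32.2, 42.9 and 52.7 CPM against 43.6, 54.7 and 63.5 CPM (-0.30 ± 0.15). Chat, the acetylcholine-synthesising enzyme of striatal interneurons, was at 27.5 to 36.1 CPM after water and 20.1 to 47.6 CPM after EtOH. Chrna5, the alpha-5 subunit, was among the most variable genes of the synapse, between 0.8003 and 35.8 CPM. Of 6 tested serotonin receptors, 4 were higher. Htr2c was at 460, 537 and 749 CPM after water and 577, 701 and 1419 CPM after EtOH (0.53 ± 0.22), with an unadjusted P under 0.05 and all EtOH rats above the water median. EtOH rats 1 and 2 had 1419 and 1024 CPM of Htr2c, and the other 4 had 577 to 708 CPM. All 6 tested endocannabinoid genes were lower, with a median log2 fold change of -0.18. This median was 0.06 with the share of reads outside genes as a covariate, -0.03 with 1 surrogate variable and -0.11 without EtOH rat 1. Dagla, the enzyme that makes 2-arachidonoylglycerol, ran from 11.02 CPM in EtOH rat 1 to 130 CPM in water rat 2 (-0.63 ± 0.51). Cnr1, the CB1 receptor, was at 680 CPM in water rat 5 and between 178 and 357 CPM in the others.

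Potassium channels of the BK, SK and GIRK classes, which damp firing and include direct targets of alcohol, had a median SD of 0.883. Kcnj6, the GIRK2 channel, had lowest, median and highest levels of 9.75, 102 and 169 CPM after water and 20.9, 94.4 and 219 CPM after EtOH (0.20 ± 0.63), and was lowest in water rats 1 and 5 and EtOH rat 1. Kcnma1, the pore of the BK channel, varied little, from 113 to 170 CPM (0.06 ± 0.12). Kcnn2, the SK2 channel, was at 13.9, 16.6 and 18.8 CPM after water and 16.6, 21.6 and 24.4 CPM after EtOH (0.36 ± 0.15), an unadjusted P under 0.05, with 5 of 6 EtOH rats above the water median. Its SD of 0.189 was the smallest of the family. Calcium channels had 7 members higher and 8 lower of 15. Cacna1h, a T-type channel, was at 50.2, 105 and 159 CPM after water and 20.001, 59.2 and 134 CPM after EtOH (-0.74 ± 0.39), and Cacna1g, another T-type channel, was below 7 CPM in water rat 5 and EtOH rats 1 and 2 and was between 15.1 and 84.8 CPM elsewhere. Sodium channels had 6 members higher and 4 lower. Scn2a, an axonal channel, was at 515, 674 and 753 CPM after water and 531, 752 and 1054 CPM after EtOH (0.25 ± 0.16).

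Downstream signalling and release genes were mostly close to the background. Of 29 tested cAMP and kinase genes, 19 were lower and 10 higher, and Prkar2a, a regulatory subunit of protein kinase A, was above the water median in 6 of 6 EtOH rats (43.1 to 67.8 CPM, against 33.5 to 55.2 CPM after water, 0.34 ± 0.16). Synaptic vesicle and exocytosis genes, all 40 of them tested, had 26 lower and 14 higher. Syn3, a synapsin, was below the water median in 6 of 6 EtOH rats, at 11.98, 16.2 and 19.5 CPM after water and 7.25, 12.6 and 14.9 CPM after EtOH (-0.43 ± 0.20, an unadjusted P under 0.05). Syn1, its better known relative, was at 373, 552 and 683 CPM after water and 456, 643 and 725 CPM after EtOH (0.19 ± 0.15).

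Immediate early genes are transcribed within minutes of neuronal firing, and 20 of the 35 listed were tested. They had 8 members higher and 12 lower, a median log2 fold change of -0.02 and a median SD of 0.576. In experiment 1 the median SD of the same genes was 0.502, a value that was not tested against the present one. Fos had lowest, median and highest levels of 2.93, 11.2 and 14.5 CPM after water and 1.16, 11.5 and 14.7 CPM after EtOH (-0.17 ± 0.52). It was at 2.93 CPM in water rat 1 and at 1.16 and 2.66 CPM in EtOH rats 1 and 2, and between 9.80 and 14.7 CPM in the other 9. Several further members, chosen after their values were seen, ranked the rats alike. Arc, a postsynaptic protein of plasticity, was at 9.74, 4.93 and 10.2 CPM in those 3 rats and 33.1 to 101 CPM in the rest. Npas4, an activity-dependent transcription factor, was at 3.20, 0.870 and 3.44 CPM there and 10.6 to 68.3 CPM in the rest. Nr4a1, an orphan nuclear receptor, was at 5.60, 3.04 and 6.105 CPM there and 16.6 to 56.5 CPM in the rest. Homer1, a synaptic scaffold, was highest in EtOH rat 1, at 521 CPM, and Dusp1, a phosphatase induced by growth factors and stress, ranged only from 26.4 to 64.2 CPM. Nr4a3 had the lowest P of the family, at 9.20, 19.1 and 23.3 CPM after water and 19.1, 25.1 and 32.9 CPM after EtOH (0.49 ± 0.22, an unadjusted P under 0.05).

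Activity induces many of these genes through CREB, a factor that binds the letters CGTCA and their longer palindrome. The promoter of Nr4a1 is shown because it held 4 copies of these letters, a choice made after the search. Of 33469 rat promoters in RefSeq (GRCr8), 18.2% held CGTCA or its complement within the 250 bases before the start, and 0.173% held it at least 4 times, as here. The bases below run 5′ to 3′ on the plus strand, at chr7:134259888-134260137, up to the start, and capitals mark the 4 matches. A match describes the letters only and is no measured binding site.
Nr4a1: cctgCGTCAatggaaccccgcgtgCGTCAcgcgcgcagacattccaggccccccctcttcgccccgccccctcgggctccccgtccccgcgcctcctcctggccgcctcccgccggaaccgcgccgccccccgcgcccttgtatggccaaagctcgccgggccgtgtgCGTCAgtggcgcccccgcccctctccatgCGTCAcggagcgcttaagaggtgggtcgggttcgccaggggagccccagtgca

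Circadian clock genes had 17 tested members, 5 higher and 12 lower. Arntl, which encodes BMAL1, was at 80.1, 91.3 and 109 CPM after water and 65.1, 76.3 and 93.1 CPM after EtOH (-0.22 ± 0.12), and Clock, its partner, had a log2 fold change of 0.15 ± 0.17. Ciart, a repressor of the clock, was the most variable member, at 28.7 CPM in water rat 1, 24.7 CPM in EtOH rat 2 and 5.15 to 18.7 CPM elsewhere. The time of day of each death was not used here.

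Some targets of the glucocorticoid receptor, most of them chosen after their values were seen, separated the rats into a high and a low set. These sets crossed the gavage groups, and water rat 5 was not on the same side for each target. The family holds hormone receptors, CRF genes and induced targets, and 13 of its 22 members were tested, 11 higher and 2 lower after EtOH gavage, with a median log2 fold change of 0.21. With the share of reads outside genes as a covariate this median was -0.00024, and with 1 surrogate variable it was 0.09. Pdk4, a brake on pyruvate oxidation that corticosterone induces, had lowest, median and highest levels of 2.76, 4.24 and 37.6 CPM after water and 4.76, 23.5 and 49.2 CPM after EtOH (0.97 ± 0.77). Values of 24.0 to 49.2 CPM were seen in water rats 1 and 5 and EtOH rats 1, 2 and 3, and values of 2.76 to 10.6 CPM in the other 7. Sgk1, the serum and glucocorticoid regulated kinase, was chosen after its values were seen. It lay between 377 and 416 CPM in the same 5 rats and between 86.6 and 137 CPM in the other 7, with nothing in between. Fkbp5 and Tsc22d3, co-chaperone and leucine zipper targets of the receptor, were also chosen after their values were seen. Fkbp5 was at 167 to 242 CPM in water rat 1 and EtOH rats 1, 2 and 3 and at 83.7 to 119 CPM in the other 8. Tsc22d3 was at 179 to 201 CPM in those 4 rats and 52.9 to 70.2 CPM in the other 8, water rat 5 among them. The receptor Nr3c1 itself was not divided in this way, at 224, 243 and 352 CPM after water and 209, 275 and 379 CPM after EtOH (0.11 ± 0.15). Hsd11b1, which regenerates active corticosterone, had the lowest P of the family, with all 6 EtOH rats below the water median (39.9 to 89.3 CPM against 69.0 to 141 CPM, -0.41 ± 0.22). The 5 rats with high Sgk1 were also those with the largest shares of reads outside genes, although EtOH rat 3, at 51.7%, was close to EtOH rat 6, at 51.1%, and scored 10.1 on the first principal component.

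Tmem252, a transmembrane protein, was among the 10 genes with the largest SDs and stood high in a nearly identical set. It was at 60.3 CPM in water rat 1, and at 43.2, 74.98 and 31.2 CPM in EtOH rats 1, 2 and 3, and at most 5.15 CPM in the other 8 rats (1.08 ± 1.11). Zfp189, the most variable of the zinc finger genes, was at 255 and 146 CPM in water rats 1 and 5, at 350, 321 and 175 CPM in EtOH rats 1, 2 and 3, and between 48.6 and 85.6 CPM in the others (0.81 ± 0.55). Aspa, the oligodendrocyte enzyme that cleaves N-acetylaspartate, ran from 23.4 to 277 CPM and was likewise highest in water rat 1 and EtOH rats 1 and 2.

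Heat shock and ER chaperones differed little among rats as a family. Their 36 tested members had a median SD of 0.291, a median log2 fold change of 0.03, and family levels between -0.08 and 0.19. The median member had 55.9% of its within-group variance on the leading component, with Hsf1 lowest and Hsf2 highest in EtOH rat 1. Hsf2, a heat shock factor, was above the water median in 6 of 6 EtOH rats (73.3 to 143 CPM, against 65.4 to 99.3 CPM after water, 0.36 ± 0.18). Hsf1, the main inducible heat shock factor, was the most variable, between 5.22 and 44.4 CPM, and Hspa2 lay between 7.03 and 13.9 CPM.

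Myelin genes were lower on balance after EtOH gavage. Of 19 tested genes of myelin and oligodendrocytes, 15 were lower and 4 higher, with a median log2 fold change of -0.38 that stayed between -0.51 and -0.27 when each rat was left out. Mbp, myelin basic protein, had lowest, median and highest levels of 1625, 3740 and 4672 CPM after water and 1115, 2293 and 3645 CPM after EtOH (-0.63 ± 0.30). All 6 EtOH rats were below the water median of Mbp, and water rat 1, at 1625 CPM, was within the EtOH range. With the share of reads outside genes as a covariate the family median was -0.22. Oligodendrocyte precursor genes had 3 members higher and 5 lower. Pdgfra, their growth factor receptor, was at 148, 164 and 214 CPM after water and 148, 200 and 229 CPM after EtOH (0.18 ± 0.13), and Gpr17 at 3.47, 12.8 and 23.7 CPM and 2.17, 6.84 and 13.8 CPM (-0.71 ± 0.49).

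Astrocyte genes, all 19 tested, had 13 members lower and 6 higher and a median log2 fold change of -0.09. Gfap, the intermediate filament of astrocytes, had lowest, median and highest levels of 50.7, 245 and 386 CPM after water and 38.6, 143 and 333 CPM after EtOH (-0.61 ± 0.53). Water rat 1 and EtOH rats 1 and 2 had at most 52.8 CPM of Gfap and the other 9 had at least 116.5 CPM. Aqp4, the water channel of astrocyte endfeet, chosen after its values were seen, was highest in EtOH rats with low Gfap, at 1921 CPM in EtOH rat 1 and 1285 CPM in EtOH rat 2. Acsbg1, an acyl-CoA synthetase of astrocytes, had the lowest P, at 216, 268 and 382 CPM after water and 159, 209 and 334 CPM after EtOH (-0.32 ± 0.18).

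Microglial genes had 10 tested members lower and 5 higher. C1qa, a subunit of complement C1q, was at 15.2, 27.1 and 44.1 CPM after water and 9.57, 18.4 and 36.5 CPM after EtOH (-0.55 ± 0.32), with 5 of 6 EtOH rats below the water median. Cx3cr1, the fractalkine receptor, was at 4.94, 18.7 and 26.6 CPM after water and 3.04, 11.1 and 26.5 CPM after EtOH (-0.63 ± 0.49), and was lowest in water rat 1 and EtOH rats 1 and 2. Aif1, which encodes Iba1, had a log2 fold change of -0.30 ± 0.34. Interferon-induced genes had 6 members higher and 3 lower of 9, and Ifi27 spread from 2.93 to 65.8 CPM.

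Endothelial genes were lowest in those same 3 rats, with family levels of -0.60 in water rat 1 and -0.66 and -0.45 in EtOH rats 1 and 2. Of 15 tested endothelial genes 13 were lower after EtOH gavage, with a median log2 fold change of -0.30. It was -0.10 with the share of reads outside genes as a covariate, -0.14 with 1 surrogate variable and -0.19 without EtOH rat 1. Cldn5, the tight junction claudin, had lowest, median and highest levels of 19.2, 26.8 and 37.1 CPM after water and 10.6, 24.7 and 26.5 CPM after EtOH (-0.40 ± 0.25), and all 6 EtOH rats were below the water median. Eng, endoglin, was the most variable, at 2.03 CPM in EtOH rat 1 and 33.4 CPM in water rat 2. All 5 tested basement membrane genes were lower, with a median log2 fold change of -0.31, and 87.2% of the within-group variance of the median member lay on the leading component. That median log2 fold change was -0.15 without EtOH rat 1, -0.16 without water rat 2, -0.19 without water rat 3 and -0.58 without EtOH rat 4. Col4a1, a collagen of vessel walls, was at 20.8, 36.1 and 53.7 CPM after water and 13.2, 24.7 and 55.2 CPM after EtOH (-0.31 ± 0.34), and Col18a1 ranged from 3.04 to 34.7 CPM. Pericyte and smooth muscle genes had 4 members higher and 4 lower, with Tagln, a contractile protein of smooth muscle, at 1.601 CPM in water rat 1 and 35.1 CPM in EtOH rat 5.

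Fibroblast and fibrillar matrix genes had a positive median that 1 rat decided. Of 11 tested members 9 were higher after EtOH gavage, with a median log2 fold change of 0.47, and without EtOH rat 5 this median was -0.46. Col3a1, type III collagen, had lowest, median and highest levels of 1.601, 7.31 and 24.1 CPM after water and 3.33, 4.89 and 120 CPM after EtOH (1.26 ± 0.97). The 120 CPM were those of EtOH rat 5, and the other 5 EtOH rats had at most 6.67 CPM. In the same rat Igf2, Dcn and Slc13a4, chosen after their values were seen and all expressed by meningeal fibroblasts, were at 159, 84.8 and 52.9 CPM, against maxima of 48.7, 28.7 and 21.6 CPM in the other 11 rats. Fbn1, a microfibril protein, was the member with the lowest P, at 5.85 to 20.5 CPM after water and 9.09 to 26.2 CPM after EtOH (0.61 ± 0.34). The 23 members found in the files, of which 12 were not tested, had summed counts of 5686 to 14343 after EtOH and 6750 to 10491 after water. Cp, ceruloplasmin, was also highest in EtOH rat 5, at 120 CPM, with 15.5 to 47.6 CPM elsewhere. The part of adhering meninges in these values was not tested.

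Ependymal cilia genes, which mark the lining of the ventricle, divided the water group. Their median log2 fold change of -0.43 was -0.15 without water rat 5 and -0.26 without water rat 6. It was -0.10 with at least 10 counts in every rat, -0.21 with the replicate block, -0.22 with the share of reads outside genes as a covariate and -0.25 with 1 surrogate variable. Ak7, an adenylate kinase of cilia, had lowest, median and highest levels of 0.359, 11.7 and 22.4 CPM after water and 2.67, 6.04 and 11.97 CPM after EtOH (-0.89 ± 0.67). Dnah1, a dynein heavy chain of cilia, was at 0.599, 14.2 and 31.7 CPM after water and 3.62, 7.28 and 16.0 CPM after EtOH (-0.82 ± 0.68). Water rats 2, 5 and 6 had 18.1 CPM or more of Ak7 and 20.9 CPM or more of Dnah1, and water rat 4 had the lowest values of all 12 rats. Foxj1, the master factor of motile cilia, had between 0 and 56 reads. Septal and basal forebrain genes were likewise uneven. Lhx8, a factor of cholinergic neurons, was at 8.42 to 18.7 CPM after water and 3.33 to 14.0 CPM after EtOH (-0.62 ± 0.32), and Calb2, calretinin, lay between 3.06 and 32.5 CPM. Haemoglobin was represented by Hbb, at 52.9 to 140 CPM after water and 54.1 to 93.8 CPM after EtOH. Neuroblast genes had 4 members higher and 2 lower, among them Dcx, doublecortin, at 105, 129 and 244 CPM after water and 118, 187 and 307 CPM after EtOH (0.50 ± 0.27).

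Enzymes of ethanol and acetaldehyde metabolism differed little between groups. Of 11 tested, 5 were higher and 6 lower. Aldh2, the mitochondrial enzyme that clears acetaldehyde, had lowest, median and highest levels of 17.7, 44.3 and 76.8 CPM after water and 6.09, 29.8 and 62.4 CPM after EtOH (-0.59 ± 0.49), and was lowest in EtOH rats 1 and 2 and water rat 1. Acss2, which makes acetyl-CoA from acetate, was at 72.7, 79.7 and 89.9 CPM after water and 74.6, 96.4 and 122 CPM after EtOH (0.27 ± 0.13), above the water median in 5 of 6 EtOH rats. Adh5, the class III alcohol dehydrogenase, varied least, with an SD of 0.141 and levels of 55.8 to 77.9 CPM. Antioxidant genes had 18 of 30 members lower. Gstp1, a glutathione transferase, was below the water median in 6 of 6 EtOH rats, at 63.0, 74.9 and 105 CPM after water and 50.4, 61.7 and 72.7 CPM after EtOH (-0.34 ± 0.15, an unadjusted P under 0.05), and Gpx1, glutathione peroxidase, reached a low of 2.90 CPM in EtOH rat 1.

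Of 23 tested genes of cholesterol synthesis and uptake 1 had an unadjusted P under 0.05, as did 1 of 35 lysosomal genes, beside 1.33% of all tested genes. Idi1, of cholesterol synthesis, was at 28.0, 41.1 and 49.1 CPM after water and 37.5, 54.8 and 61.6 CPM after EtOH (0.38 ± 0.17). Lipa, lysosomal acid lipase, was at 57.7, 65.3 and 92.0 CPM after water and 56.2, 92.5 and 112 CPM after EtOH (0.39 ± 0.17). For both genes 5 of 6 EtOH rats were above the water median. Of 8 tested genes of iron handling, Tf, transferrin, the iron carrier made by oligodendrocytes, was below the water median in 6 of 6 EtOH rats, at 606, 779 and 1006 CPM after water and 407, 624 and 742 CPM after EtOH (-0.44 ± 0.18, an unadjusted P under 0.05). Srebf1 and Arsa, regulators of lipid synthesis and sulfatide breakdown, were the most variable of their families, at 5.07 to 83.9 CPM and 1.88 to 34.3 CPM, with the lowest values in EtOH rat 1.

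Housekeeping families differed in how many members had large SDs. An SD over 1.5 times the median of all tested genes was found in 2149 of the 8655. Such SDs were found in 20 of 70 oxidative phosphorylation and 17 of 49 ribosomal protein genes. They were found in 4 of 32 proteasome and 4 of 44 splicing genes. Oxidative phosphorylation subunits had 70 of 80 members tested, 25 higher and 45 lower, and a median SD of 0.273. Cox5a, of cytochrome oxidase, was at 34.1, 35.7 and 40.7 CPM after water and 35.4, 44.5 and 51.6 CPM after EtOH (0.29 ± 0.11, an unadjusted P under 0.05), and Ndufb7, of complex I, ran from 0.870 CPM in EtOH rat 1 to 30.7 CPM in water rat 3. Ribosomal protein genes had 49 of 84 members tested and 10 without any read. Of the tested ones 42 were lower and 7 higher, with a median log2 fold change of -0.21, or -0.02 with the share of reads outside genes as a covariate. These genes have near-identical pseudogene copies among which reads could be split, so their levels are uncertain. Rpl30 was at 0 CPM in EtOH rat 1 and 48.2 CPM in water rat 5. Rpl10 lay between 69.4 and 122 CPM. Proteasome subunits had 17 members higher and 15 lower, with Psma1 between 120 and 160 CPM. Splicing factors had 24 members higher and 20 lower, and Hnrnpa1 was above the water median in 6 of 6 EtOH rats (0.35 ± 0.16, an unadjusted P under 0.05).

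Chromatin enzymes were evenly divided, with 16 members higher and 17 lower of 33. Dnmt1, the maintenance DNA methyltransferase, was below the water median in 6 of 6 EtOH rats, at 34.8, 58.7 and 65.2 CPM after water and 28.8, 46.6 and 51.5 CPM after EtOH (-0.40 ± 0.19). Ehmt2, the histone methyltransferase G9a, ran from 11.3 CPM in EtOH rat 1 to 190 CPM in water rat 2 (-0.87 ± 0.54). Zinc finger genes were the largest tested family, with 98 of 140 members higher and a median log2 fold change of 0.18. On the leading within-group component, 103 of the 140 pointed towards higher levels in water rat 1 and EtOH rat 1, against 14 of 49 ribosomal protein genes and 0 of 5 basement membrane genes. So did 24 of 36 heat shock and ER chaperones and 30 of 44 splicing factors. The same count over all tested genes was not made, so these counts do not set a family apart from other genes. With the share of reads outside genes as a covariate the zinc finger median was -0.01, and it was 0.07 without EtOH rat 1 and 0.11 without EtOH rat 2.

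Of 13 tested ADAMTS and matrix-remodelling enzymes 6 were higher and 7 lower after EtOH gavage. Their median log2 fold change was -0.24, and 0.03 with the share of reads outside genes as a covariate. It was -0.08, -0.10 and -0.02 without water rats 2, 3 and 5, and -0.04, -0.05 and -0.13 without EtOH rats 1, 2 and 3. Adamts4, an aggrecanase, had lowest, median and highest levels of 6.94, 22.9 and 38.1 CPM after water and 1.45, 10.2 and 18.6 CPM after EtOH (-1.16 ± 0.52, an unadjusted P under 0.05). All 6 EtOH rats were below its water median, and the lowest were EtOH rats 1 and 2. Adamts1, a related protease, showed the reverse in these rats, at 43.3 and 75.6 CPM, with 10.4 to 42.4 CPM elsewhere (0.66 ± 0.47). Celsr2, a large cadherin of planar polarity, was at 61.8, 176 and 281 CPM after water and 18.6, 82.5 and 181 CPM after EtOH (-0.78 ± 0.52). Protocadherins were steadier, with 12 members higher and 14 lower of 26 and family levels between -0.14 and 0.17. Among heparan sulfate enzymes, 14 of 24 members were lower, and Hs6st1, a 6-O-sulfotransferase, was at 38.2, 45.9 and 60.04 CPM after water and 26.0, 37.2 and 48.3 CPM after EtOH (-0.36 ± 0.16, an unadjusted P under 0.05). Plec, plectin, the most variable of the giant cytoskeletal proteins, ran from 17.4 CPM in EtOH rat 1 to 289 CPM in water rat 2. Olfactory receptors gave no tested gene, and 1101 of the 1196 listed had no read in any rat.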

How the data were processed

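PolyA-selected RNA of the NAc of each rat was sequenced, with strand-specific libraries in experiment 2, and per the labels the authors aligned reads with TopHat2 to the rn6 genome and counted them with HTSeq, whose options are not given in the sources used here. The deposited files hold raw counts per gene symbol, 1 file per rat, with 5 summary lines that were left out of library sizes and tests. Versions in the submitters' processing notes were 2.0.13 for TopHat2, 0.5.3p3 and 0.6.0 for HTSeq and 1.6.2 for DESeq2. Reads on genes ranged from 6713617 to 8765472 per rat, which limits precision for low genes.

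Rats were grouped by sample title. Genes with a mean normalised count above the median of the listed genes were tested with edgeR 4.0.16 in R 4.3.3 (TMM scaling, quasi-likelihood test, the 12 rats only), with Benjamini-Hochberg adjustment, and checked on simulated data. CPM was computed over tested genes, and log2 CPM had a prior count of 2. The SD among rats within groups has 10 degrees of freedom. A family's level is the mean log2 CPM of its tested members, each centred on the 12 rats. No label says how rats were paired or batched. The P-values treat the 12 rats as independent, which pairing or a shared batch would break.

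The gene families and the comparisons were chosen with earlier results of these data known. Genes named were the 10 with the lowest P, the 10 with the largest SD, and in each family the first-listed, the lowest-P and the most variable tested member, and others are said to have been chosen after their values were seen. Alternatives were DESeq2 1.42.0, other scaling and filters, all 4 groups in 1 fit, a replicate block, 1 surrogate variable (sva 3.50.0), the share of reads outside genes, and leaving out each rat. A cortical covariate, leaving out both rats numbered 1, and SDs divided by their trend were added after seeing the data. The promoter sequence is from RefSeq (GRCr8), and was searched on both strands. Some members of the families that meet this rule are not reported here.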

Additional observations from a re-analysis of the deposited data

Results flagged for a closer look

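In 158 groups of 6 rats, formed in each gavage group by 4 library measures, the 10 lowest-P genes, the 10 genes with the largest SDs and 55 family levels, 10 held a rat whose gap to the nearest other rat exceeded Dixon's 95% critical value, where chance alone gives 7.9 at 1 in 20. Among genes, Nabp1 was at 32.3 CPM in EtOH rat 1 with the other EtOH rats at 16.8 to 22.2 CPM. Pdgfc was at 14.5 CPM in water rat 5, above 8.54 to 9.97 CPM in the rest of its group. Fancd2 reached 21.7 CPM in water rat 1 and 6.59 to 8.78 CPM in the other water rats. Tmem252 stood at 60.3 CPM in water rat 1, against 1.45 to 5.15 CPM.

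Among family levels on the log2 scale, fibroblast and fibrillar matrix genes were at 1.71 in EtOH rat 5, with -0.45 to -0.03 in the other EtOH rats. Pericyte and smooth muscle genes were at -0.74 in water rat 1 (others 0.07 to 0.54), and neuroblast genes at -0.48 in water rat 4 (others -0.05 to 0.18). Water rat 5 was low for opioid genes, at -0.68 (others -0.10 to 0.20), and high for heat shock and ER chaperones, at 0.19 (others -0.08 to 0.01). LGI and ADAM22 genes were at -0.55 in EtOH rat 1 (others -0.10 to 0.16).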

How the results depend on the processing

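No gene had an FDR under 0.05 in any of the 23 alternatives run, with lowest FDRs from 0.388 to 0.9999. The 115 genes with P under 0.05 became 315 with DESeq2, 286 with no filter, 623 with all 4 groups in 1 fit, 414 with the replicate block, 363 without both rats numbered 1 and 876 with the cortical level as a covariate, the last 2 chosen after seeing the data, and 28 to 776 when each rat was left out. Same-numbered rats had correlations of 0.835, -0.759, 0.546, 0.197, -0.354 and 0.432, and 1 of 12 rats correlated best with its own number. With 73.2% of the within-group variance on 1 component, these correlations cannot decide whether same-numbered rats were paired or shared a batch. The 9 families with medians beyond 0.25 in size became 3 with 1 surrogate variable, 4 with the share of reads outside genes, and 5 (without water rat 2) to 14 (without EtOH rat 4) when each rat was left out. With the replicate block the fibroblast median was -0.01. The 12 families of large SD became 23 with the leading component removed. The mean distance of rats from their group, 0.0903 larger after EtOH gavage, lay between -0.0318 (without EtOH rat 1) and 0.160 when each rat was left out. Of 1518 fold changes under the alternatives, for 66 genes (the 10 of lowest P and the lowest-P member of each family), 1502 kept their direction. These genes were chosen by P in the same rats, so little else could come out. Of the 55 family medians, 31 kept their sign with the share of reads outside genes and 38 with 1 surrogate variable. In the other alternatives 47 (without EtOH rat 1) to 55 did. With 1 surrogate variable Cux2, Gria2, Cntfr, Snhg11 and Hbb turned to 0.0582, -0.0201, 0.0774, 0.0292 and 0.00646. With the share of reads outside genes Cux2, Grin1, Gria2, Dagla, Cntfr, Snhg11, Gpr17 and Adam11 turned to 0.176, 0.0229, -0.0534, 0.145, 0.205, 0.0282, 0.107 and 0.151. When each rat was left out, Hbb lay between -0.227 and 0.0920 (above 0 without water rat 3) and Snhg11 between -0.0853 and 0.0176 (above 0 without EtOH rat 1), and Snhg11 was 0.0107 without both rats numbered 1. The cause of these changes was not tested.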

Other observations

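Cell cycle genes had 14 tested members, 7 higher and 7 lower after EtOH gavage, with a median log2 fold change of 0.02, and family levels from -0.28 in water rat 4 to 0.24 in EtOH rat 2. PDGF ligands and receptors had 4 tested members, 2 higher and 2 lower. Otx2, a choroid plexus factor, had 0 reads in every rat, and Hba1, a haemoglobin chain, had between 0 and 10.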
